A study of Mus musculus with 4 samples.

Results

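The tumorigenic cluster of intestinal CD4+ T cells was described from single-cell RNA sequencing, by taking every cell that the deposited expression table named tumorigenic. It held 368 of the 5080 cells, spread very unevenly over the conditions. All mice were C57BL/6, 7 to 8 months old, and carried Il17a-cre with the Rosa26-stop fl/fl-yfp reporter, so that a cell that had switched on *Il17a* was marked by YFP for good, whatever it expressed later. TGFβR-KO mice were also *Tgfbr2* fl/fl and so lost *Tgfbr2*, a receptor chain for TGFβ, in those cells, TGFβR-CA mice carried a Stop fl/fl-Tgfbr1-CA allele and so a constitutively active *Tgfbr1*, and TGFβR-WT littermates carried neither. YFP+CD4+ T cells were sorted from the small intestine of pooled mice and sequenced as 1 TGFβR-KO, 1 TGFβR-CA and 2 TGFβR-WT samples. The cluster took 361 of 2975 TGFβR-KO cells, which is 12.1% (exact 95% binomial interval 11.0 to 13.4%). It took 5 of 1007 cells labelled TGFβR-WT, or 0.497% (0.161 to 1.15%), and 2 of 1098 labelled TGFβR-CA, or 0.182% (0.0221 to 0.656%). With 1 TGFβR-KO sample there was no replicate of any level below, no test was run, and intervals cover counting error only.

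The values were therefore described within TGFβR-KO, as the 361 tumorigenic cells against the 2614 cells of the other 7 clusters: pretumorigenic, CTL (cytotoxic T lymphocyte-like), activated, migratory, tissue-resident TFH (follicular helper T), germinal center TFH and cycling. A level is the number of corrected unique molecular identifiers (UMIs, a count of RNA molecules after the authors' depth correction) of a gene per 10000 corrected UMIs of the cluster. The clusters had themselves been drawn from these expression values, so a gene that sets the cluster apart is a description of how it was drawn. Tumorigenic cells had a median of 3940 corrected UMIs and 1430 detected genes, against 3780.5 and 1498.5 in the other clusters together, and a median of 0.955% mitochondrial UMIs against 1.03%. None of the 361 carried a cell barcode seen in another set of cells, whereas 15 of all TGFβR-KO cells did. *Tgfbr2* itself was at 1.204 per 10000 in the tumorigenic cells and 1.52 in the other clusters, and over all cells at 1.48 in TGFβR-KO, 1.72 and 1.76 in the larger and the smaller set of TGFβR-WT cells and 1.78 in TGFβR-CA. Reads from the 3′ end need not cover the deleted part of the gene and so do not check the deletion. Over all cells, *Tgfbr1* was at 0.219 in those labelled TGFβR-KO and 0.792 in those labelled TGFβR-CA, whereas the sets labelled TGFβR-WT stood at 0.367 (larger) and 2.79 (smaller). The smaller set thus exceeded the cells that should carry the active *Tgfbr1*, which the labels would not lead one to expect, while the larger set was below them. Whether 3′ reads of the active allele count as *Tgfbr1* was not checked. The smaller set was also highest in *Il17a*, at 5.73 against 2.30 in TGFβR-CA and 1.29 in the larger set. These levels therefore do not decide whether the labels are right. The number of cells under each label equals that in the study's methods, and cells are called here by the labels. By the same methods the cells came from 2 sequencing runs, with TGFβR-KO and TGFβR-WT in one and TGFβR-CA and TGFβR-WT in the other.

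Th17 cells are CD4+ T cells that make IL-17A, IL-17F and IL-22 with the help of the factor RORα (*Rora*), and they stand guard at the gut barrier. Th1 cells make interferon-γ (*Ifng*) under T-bet (*Tbx21*). TGFβ takes part in the making of Th17 cells, and cells that once made IL-17 are known to be able to take on Th1 features. The name tumorigenic is the study's, and nothing in the expression table measures tumor formation.

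All 6 genes used to mark the cluster were higher in it than in the other clusters pooled, and each was at its highest there of the 8 clusters. *Ifng* stood at 21.5 per 10000 in the tumorigenic cells, 7.66 in pretumorigenic cells, 3.44 in CTL and 4.06 in cycling cells. It was at 1.99 in activated, 0.861 in germinal center TFH, 0.835 in migratory and 0.0363 in tissue-resident TFH cells, so that the tumorigenic level was 2.81-fold that of the next cluster. *Bhlhe40*, a transcription factor that Th1 cells use to sustain cytokine output, was at 15.04 against 6.44 in pretumorigenic cells and 0.130 to 4.06 in the other 6. *Nr4a1*, an orphan nuclear receptor switched on rapidly by the T cell receptor, was at 10.7 against 7.76 in pretumorigenic cells and 0.0570 to 1.73 elsewhere. *Tnfaip3* encodes A20, a feedback inhibitor of NF-κB, and was at 17.7 against 12.7 and then 0.182 to 2.63. The kinase gene *Pim1* was at 16.9 against 9.50 and then 0.970 to 4.83. *Furin*, a protease that cleaves pro-TGFβ among other precursors, had the smallest ratio of the 6 to the pooled clusters (3.89-fold), with 23.6 against 15.7 in pretumorigenic, 11.4 in activated and 0.949 in tissue-resident TFH cells.

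By GENCODE M21 on mm10, these protein-coding genes lie at chr10:118441046-118445892 (*Ifng*), chr6:108660629-108666925 (*Bhlhe40*), chr15:101254269-101274795 (*Nr4a1*), chr10:19000910-19015657 (*Tnfaip3*), chr17:29490753-29496112 (*Pim1*) and chr7:80388585-80405436 (*Furin*). The markers set the cells apart from the TFH, migratory and activated clusters far more than from the pretumorigenic one. Only *Ifng*, *Bhlhe40*, *Pim1* and *Furin* of the 6 passed 1.5-fold above every other cluster, while *Nr4a1* and *Tnfaip3* stood at 1.38-fold and 1.39-fold the pretumorigenic level. In single cells *Ifng* was the least often detected of the 6. *Tnfaip3* was found in 96.7% of tumorigenic cells, *Pim1* in 95.3%, *Bhlhe40* in 93.9%, *Furin* in 91.4% and *Nr4a1* in 83.4%, and *Ifng* in 60.1% (interval 54.9 to 65.2%). The share with *Ifng* in tissue-resident TFH cells, where the gene was lowest, was 1.35% at a median depth of 3575 corrected UMIs, a low share against which the others can be read. Other cells of the gut were nearly absent by their markers. The 13 epithelial markers in the table summed to 0.220 per 10000 (0.162 to 0.409 in the other clusters), with 5 at 0. The 8 γδ T cell markers summed to 0.0637 (0 to 0.0929) with 7 at 0, and the 9 B cell markers to 0.545 (0.204 to 4.91) with 3 at 0. The 11 myeloid markers reached 1.69 (1.595 to 2.53), of which *Cst3* alone gave 1.57, and *Foxp3*, which defines regulatory T cells, was at 0.0283. Of 13 T cell identity genes compared, 12, all but *Trbc1*, lay within 1.5-fold of the other clusters, among them *Cd3e* at 9.08 against 10.7 and *Cd4* at 3.36 against 4.04.

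**Figure D1:**
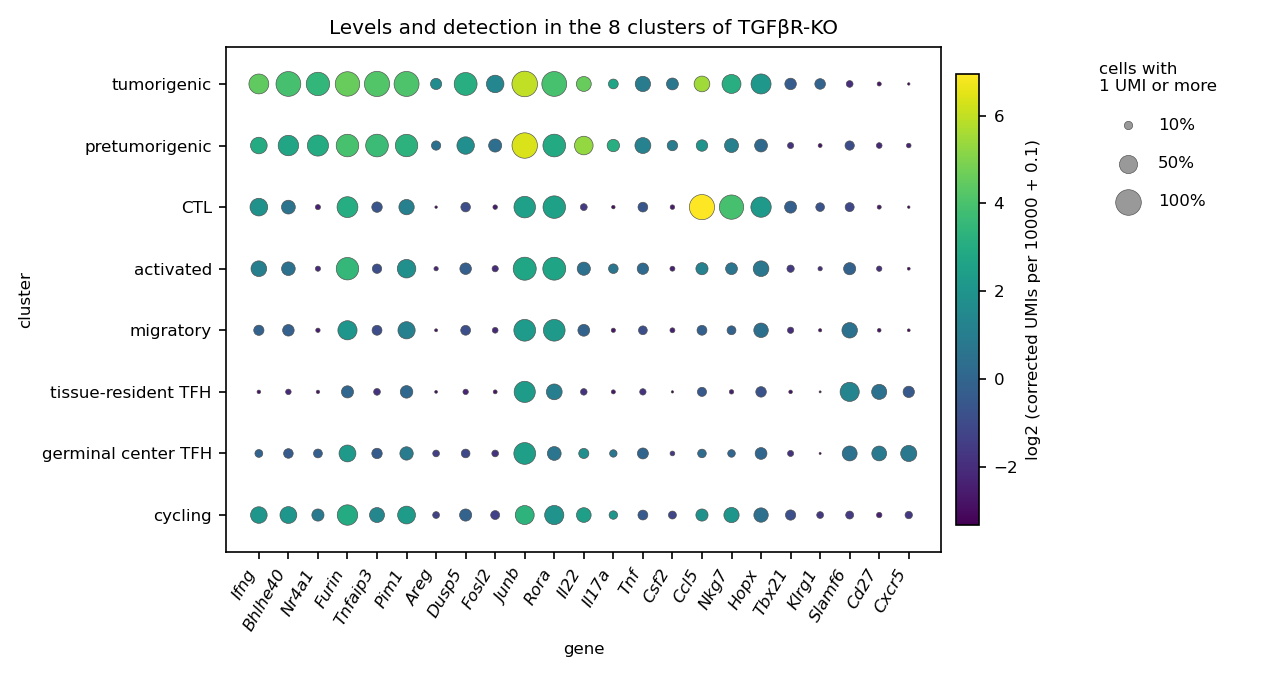
Dots show 23 genes (horizontal axis) in the 8 clusters of TGFβR-KO cells (vertical axis), with dot area rising with the percent of cells in which the gene was detected and color giving the level as log2 of corrected UMIs per 10000 plus 0.1. Tumorigenic and pretumorigenic rows share the high Nr4a1, Tnfaip3 and Junb, whereas Ccl5 and Nkg7 are shared with CTL, and Slamf6, Cd27 and Cxcr5 are small and dark in the tumorigenic row.

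Over the whole transcriptome, 5953 genes had at least 200 corrected UMIs in TGFβR-KO cells and were compared. Of these, 402 (6.75%) were at least 1.5-fold higher in the tumorigenic cells than in the other clusters pooled, and 1321 (22.2%) at least 1.5-fold lower. The median gene stood at -0.22 on the log2 scale, so the balance of higher and lower genes was tilted as a whole. Divided by that median, the ratios gave 645 higher and 744 lower genes. The 10 genes furthest above the pooled clusters after the markers were *Areg* (16.0-fold), *Gem* (13.5-fold), *Dusp5* (13.0-fold), *Fosl2* (11.9-fold), *Nr4a2* (9.16-fold), *Cdkn1a* (9.06-fold), *Vps37b* (9.05-fold), *Cxcl3* (8.89-fold), *Odc1* (8.69-fold) and *Sik1* (8.65-fold). *Klrg1*, an inhibitory receptor of late effector T cells, followed at 8.42-fold. Among them *Gem* encodes a small GTPase, *Dusp5* a phosphatase, *Fosl2* an AP-1 factor and *Nr4a2* a nuclear receptor.

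**Figure D2:**
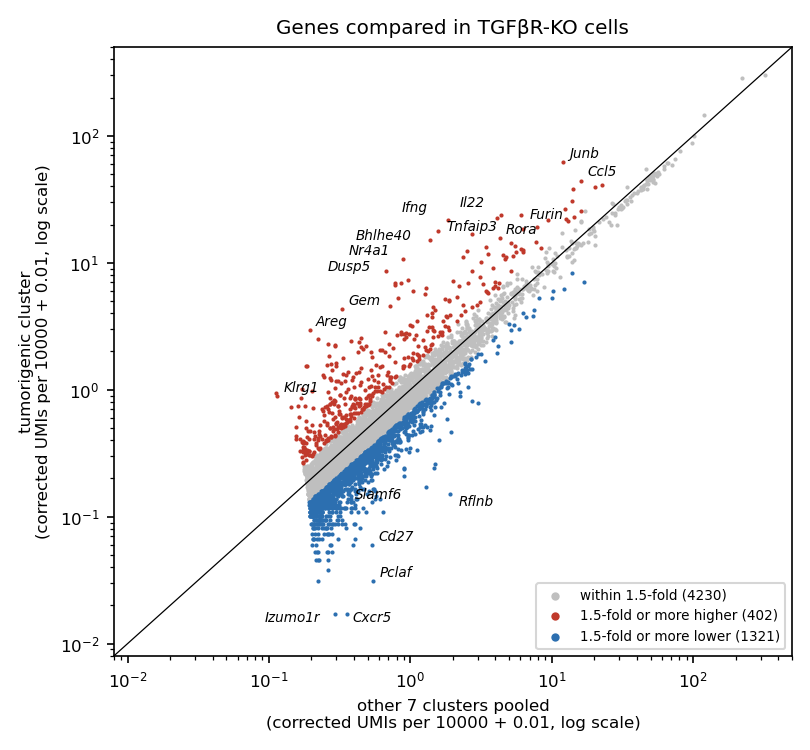
Each point is 1 of 5953 genes, placed by its level in the other 7 clusters pooled (horizontal) and in the tumorigenic cluster (vertical) of TGFβR-KO, both as corrected UMIs per 10000 plus 0.01 on log axes, with the diagonal marking equal levels. The 402 higher genes (red) include well expressed ones such as Junb, Ccl5, Furin and Ifng, while most of the 1321 lower genes (blue) sit below 1 per 10000.

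By rank of expression across the same genes, the tumorigenic cells were closest to the pretumorigenic cluster (Spearman's rho 0.930 over 5953 genes of log2 level plus 0.1). Then came the migratory (0.864), activated (0.860) and CTL (0.846) clusters, and last the germinal center TFH (0.796), tissue-resident TFH (0.778) and cycling (0.747) clusters. All 8 come from 1 library, and the 77 cycling cells carry the most counting noise.

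A stricter cut asked which genes were at least 1.5-fold above each of the other 7 clusters, and 67 (1.13% of those compared) were. The second highest cluster was the pretumorigenic one for 39 of the 67 and CTL for 6. *Irf7*, a factor of the interferon response, led them at 1.01 per 10000 against 0.355 in CTL and 0.217 to 0.305 in the rest. Behind *Irf7* and *Ifng* came *Dusp5* (8.55 against 3.23 in pretumorigenic cells), the MYC antagonist *Mxd1* (0.715 against 0.276), *Ermn* (1.61 against 0.651 in cycling cells) and *Areg* (2.95 against 1.23). *Areg* encodes amphiregulin, an EGF receptor ligand that supports epithelial repair, and here it came from 18.6% of the cells, with up to 39 corrected UMIs in 1 cell. *Fasl*, the death ligand, was at 0.857 against 0.380 in CTL. *Zeb2*, a partner of T-bet in terminal effector cells, was at 0.736 against 0.347 in CTL. *Rora*, which takes part in the Th17 program, was at 15.5 against 7.51 in pretumorigenic cells, and was found in 94.2% of tumorigenic cells. The first 15 by this measure thus held Th1 effector genes, a Th17 factor and feedback genes of signaling. Others of the 15 were *Vps37b* at 6.95, *Nr4a3* at 2.25, *Odc1* at 6.65 and *Klf7* at 0.885, against 3.11, 1.02 and 3.17 in pretumorigenic and 0.434 in cycling cells.

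The stretch before the start of 4 of these genes is shown with the motifs found in it. The motifs are sites of NF-κB, AP-1, CREB, serum response factor and T-box factors, whose activity was not measured. RefSeq windows (GRCm38.p6) gave the 250 bases before the start for 50 of the 67 genes, and both strands were searched for the κB motif, the AP-1 motif TGANTCA, the CRE motif TGACGTCA, the CArG box and the T-box motif AGGTGTGA. *Ifng* (chr10:118440796-118441045, plus strand) held none of them, *Areg* (chr5:91139349-91139598, plus) held a CRE motif, *Dusp5* (chr19:53528895-53529108, plus, ended where the GENCODE M21 gene begins) held 2 adjoining CArG boxes, and *Cxcl3* (chr5:90785851-90786100, plus) held 2 overlapping matches to the κB motif. The sequences run 5′ to 3′ with motifs in capitals.
*Ifng*: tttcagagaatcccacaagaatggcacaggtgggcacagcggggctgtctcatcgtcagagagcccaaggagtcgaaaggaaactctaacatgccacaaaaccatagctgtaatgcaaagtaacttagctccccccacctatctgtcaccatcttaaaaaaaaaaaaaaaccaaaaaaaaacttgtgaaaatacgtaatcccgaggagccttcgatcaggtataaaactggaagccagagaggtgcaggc
*Areg*: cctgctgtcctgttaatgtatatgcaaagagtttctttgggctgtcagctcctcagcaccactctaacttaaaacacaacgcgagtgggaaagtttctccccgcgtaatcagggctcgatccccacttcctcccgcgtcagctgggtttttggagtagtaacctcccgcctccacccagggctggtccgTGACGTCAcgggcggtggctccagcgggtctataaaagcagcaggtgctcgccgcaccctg
*Dusp5*: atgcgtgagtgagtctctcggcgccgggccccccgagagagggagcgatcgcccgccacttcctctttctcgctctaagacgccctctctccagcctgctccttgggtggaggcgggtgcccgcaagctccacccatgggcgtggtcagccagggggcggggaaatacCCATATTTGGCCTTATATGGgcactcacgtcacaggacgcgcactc
*Cxcl3*: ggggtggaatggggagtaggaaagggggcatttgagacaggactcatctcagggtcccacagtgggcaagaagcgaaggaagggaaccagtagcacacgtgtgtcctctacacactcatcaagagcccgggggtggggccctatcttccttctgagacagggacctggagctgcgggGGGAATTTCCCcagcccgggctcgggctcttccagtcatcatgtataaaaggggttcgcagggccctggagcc
The κB motif was in the windows of 12 of the 50 genes, or 24% (interval 13.1 to 38.2%), against 10.5% of the 4707 compared genes with a window and 7.25% of all 32851 windows. The 12 were *Fosl2*, *Pde4b*, *Grasp*, *Ubald2*, *Cxcl3*, *Rel*, *Tgif1*, *Got1*, *Gch1*, *Ramp3*, *Rara* and *Gpr132*. The AP-1 motif was in 6 of the 50 (12%, interval 4.53 to 24.3%) against 4.65% of compared genes and 6.75% of windows. The 6 were *Zeb2*, *P2ry10*, *Slc7a1*, *Bcl2a1a*, *Bcl2a1b* and *Emp1*. *Bcl2a1a* and *Bcl2a1b* are near-identical copies, which the interval takes as separate genes. The CRE motif (*Areg*) and the CArG box (*Dusp5*) were in 1 gene each, against 3.25% and 1.27% of compared genes and 1.55% and 1.47% of windows, and the T-box motif in none, against 0.722% and 1.12%. These matches describe letters in short windows and were not tested.

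Among 14 effector cytokine genes compared, 8 were higher in the tumorigenic cells and 2 lower than in the other clusters (over all genes compared, 6.75% and 22.2%), with a median log2 ratio of 1.44. The Th17 cytokines were among the higher ones, although their peak lay elsewhere. *Il22* was at 23.6 per 10000, below the 38.6 of pretumorigenic cells and above the 0.187 to 5.33 of the other 6 clusters. Some of its UMIs may be split with *Iltifb*, a near-identical neighbor on the same chromosome, which was found in 8.86% of tumorigenic cells. *Il17a* stood at 6.32 against 8.61 in pretumorigenic cells and 3.996 in cycling cells, and *Il17f* at 2.51 against 5.36 in pretumorigenic and 2.37 in germinal center TFH cells. Both genes were all but absent from CTL, with 4 and 1 corrected UMIs in 321 cells. *Tnf* (1.82 against 0.699 in the pooled clusters), the GM-CSF gene *Csf2* (1.56 against 0.248) and the M-CSF gene *Csf1* (0.786 against 0.271) were higher as well. *Csf1* was high in CTL too (0.860), whereas *Csf2* was high in pretumorigenic cells (1.85) and near 0 in CTL (0.0661). The lower pair was *Il16*, which encodes a ligand of CD4 (0.453 against 1.94), and the lymphotoxin-β gene *Ltb* (5.25 against 10.1).

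Chemokine genes separated the cluster from its pretumorigenic neighbor. Of 6 compared, 4 were higher than in the pooled clusters (6.75% of all genes were) and 5 higher than in pretumorigenic cells (9.31% of all genes were). *Ccl5*, which draws T cells and monocytes, was at 44.4 per 10000, 11.3-fold the 3.94 of pretumorigenic cells but far below the 124 of CTL. It was detected in 37.4% of tumorigenic cells, with a median of 0 corrected UMIs in a cell. *Ccl4* was at 2.85 against 0.310 in pretumorigenic cells and 5.45 in germinal center TFH cells. *Cxcl3*, a neutrophil attractant, was at 1.54 and came from 7.20% of cells, with the cycling cluster next at 0.836.

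Of 18 Th1 regulators and receptors, 8 were higher and 2 lower than in the pooled clusters (over all genes compared, 6.75% and 22.2%). Their median log2 ratio was 0.43, and -0.19 against CTL alone. The 20 measured genes of the list summed to 49.5 per 10000, below the 51.9 of CTL and the 55.9 of activated cells. The rest of the clusters lay at 16.7 to 36.3. *Tbx21* was at 0.701 per 10000 in tumorigenic cells and 0.736 in CTL, against 0.184 in pretumorigenic cells and 0.0467 in tissue-resident TFH cells. The IL-12 receptor chain *Il12rb2* followed the same pattern (0.397, 0.479 and 0.0345, on 56, 58 and 3 corrected UMIs), as did the IL-18 receptor chain *Il18rap* (1.53, 2.12 and 0.482). These 3 transcripts were thus lower in pretumorigenic cells, where *Il12rb2* was nearly absent and *Tbx21* and *Il18rap* were still detected. *Ifngr1*, a receptor chain for interferon-γ, was highest in the tumorigenic cells at 6.54, with migratory cells next at 3.28. *Runx3*, which works with T-bet at *Ifng*, did not set them apart from CTL (3.14 and 3.12).

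Of 22 Th17 regulators and receptors, 8 were again higher and 2 lower (over all genes compared, 6.75% and 22.2%). Their median log2 ratio was 0.20. Beside *Rora* and the Th17 cytokines, the higher ones included *Nfkbiz* (7.24 against 4.204 in pretumorigenic and 0.384 to 1.46 in other cells), which encodes IκBζ, a cofactor for *Il17a*, and *Irf4* (1.48 against 0.437 pooled). *Ccr6*, the chemokine receptor by which Th17 cells are often recognized, was lower (0.581 against 1.81), as was *Il6st*, the signaling chain of the IL-6 receptor (0.0496 against 0.380). The cluster therefore kept transcripts of both programs, with *Rora* high and *Ccr6* low.

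Transcripts that follow antigen receptor and NF-κB signaling were next examined. Of 19 T cell receptor-induced early genes, 11 were higher and 4 lower, with a median log2 ratio of 1.42. Over all genes compared, 6.75% were higher and 22.2% lower, so the 4 lower ones lay near the share of all genes. The group did not move as one. All 3 Nr4a genes were higher, with *Nr4a2* at 0.928 against 0.101 and *Nr4a3* at 2.25 against 0.285 pooled, whereas *Egr1* (1.11 against 1.67), *Egr2* (0.0425 against 0.252) and *Egr3* (0.106 against 0.456) were lower. The Egr genes, which the receptor also induces, peaked in germinal center TFH cells at 3.004, 1.03 and 2.05. Of 26 NF-κB subunits and feedback inhibitors, 12 were higher and 2 lower (6.75% and 22.2% of all genes). The inhibitors led, with *Tnfaip3* at 11.3-fold, *Nfkbiz* at 7.64-fold and *Nfkbia* at 5.46-fold, together with the subunit *Rel* at 5.75-fold (5.98 against 3.39 in pretumorigenic and 2.29 in germinal center TFH cells). *Nfkb1* was not among them (1.04 against 1.30).

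Of 11 AP-1 factors, 7 were higher and 1 lower (6.75% and 22.2% of all genes). *Junb* was the most abundant, at 62.2 per 10000 with at least 1 corrected UMI in 99.7% of cells, and yet it was below the 81.6 of pretumorigenic cells. *Fos* (6.28 against 25.6) and *Jun* (9.25 against 35.6) were 4.08-fold and 3.85-fold lower than in pretumorigenic cells, whereas *Fosl2* was higher (2.51 against 1.16). Among Kruppel-like factors, 5 of 7 were higher than in the pooled clusters (6.75% of all genes were). *Klf6* was at 13.2 against 23.8 in pretumorigenic and 0.698 to 2.79 in the other clusters, while *Klf7* and *Klf2* (13.5 against 10.5 in migratory and 8.09 in pretumorigenic cells) were at their highest in the tumorigenic cells. Of 13 genes of TGFβ receptors, Smads and response, *Tgif1*, a corepressor of Smads, and the inhibitory *Smad7* were higher (2.18 against 0.281, and 1.06 against 0.520) and 3 were lower. Over all genes compared, 6.75% were higher and 22.2% lower, so the 3 lower ones lay near the share of all genes.

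Many of these genes are also induced when tissue is digested into single cells. Of 92 compared genes from a list of such dissociation genes, 59 were higher in the tumorigenic cells and 5 lower (6.75% and 22.2% of all genes). Among the higher ones were *Nr4a1*, *Tnfaip3*, *Bhlhe40*, *Gem*, *Fosl2*, *Odc1*, *Junb* and *Klf6*. Of the 92, 8 were among the 67 genes above every other cluster, whereas 1.13% of all genes compared were. The 122 measured genes of the list summed to 611 per 10000 in tumorigenic cells, 845 in pretumorigenic cells and 195 to 249.7 in the others. The part of dissociation in these levels was not tested. The heat shock and ubiquitin genes told the 2 clusters apart. The 23 measured summed to 147 in tumorigenic and 349.8 in pretumorigenic cells. Of the 20 compared, 11 were lower in the former (10.1% of all genes were), led by *Hspa1b* (13.0 against 83.6) and its near-identical copy *Hspa1a* (14.4 against 74.9). *Ifng*, *Areg*, *Dusp5*, *Rora*, *Klrg1* and *Ccl5* are not on the dissociation list.

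**Figure D3:**
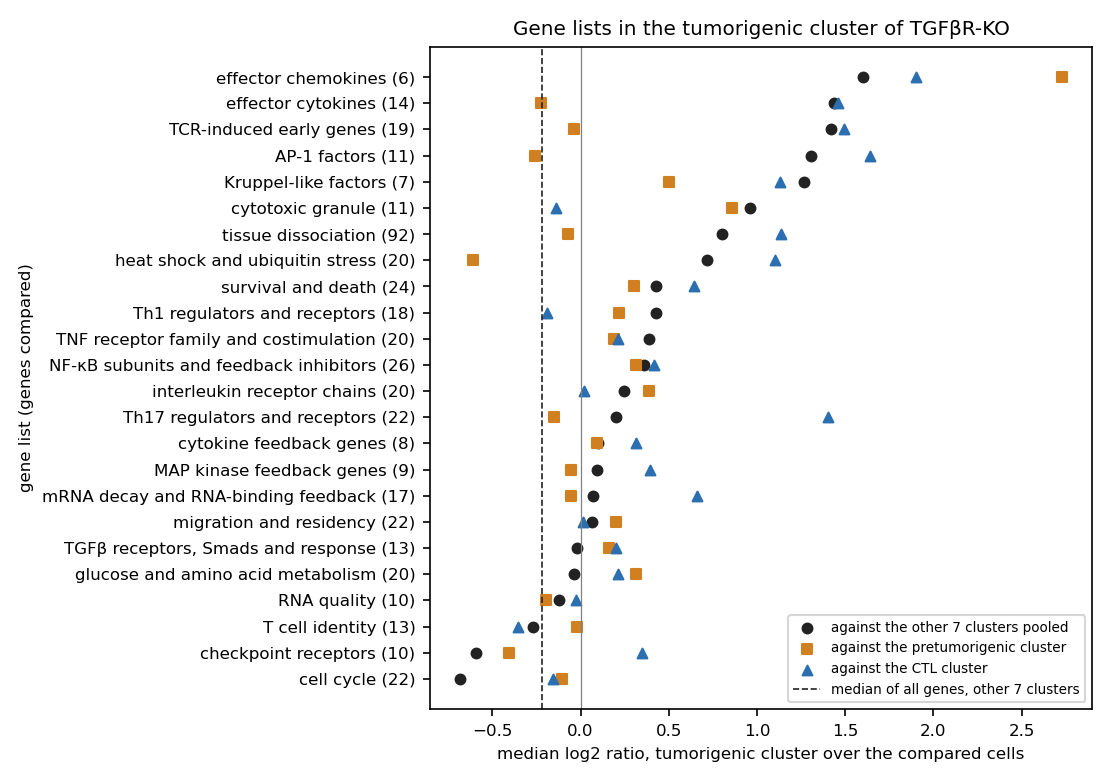
For each gene list (vertical axis, number of genes compared in brackets), markers give the median log2 ratio of the tumorigenic cluster to the other 7 clusters pooled (circles), to the pretumorigenic cluster (squares) and to the CTL cluster (triangles) in TGFβR-KO, with the dashed line at the median of all 5953 genes against the other 7 clusters (-0.22). Chemokines lie furthest right against pretumorigenic cells, heat shock genes lie left of 0 against pretumorigenic cells and right of it against CTL, and cell cycle genes lie furthest left against the pooled clusters.

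Genes that act at the cell surface and on survival also differed from the pooled clusters, and several of them were shared with pretumorigenic cells. Of 10 checkpoint receptors, 2 were higher and 5 lower (6.75% and 22.2% of all genes). *Ctla4* was at 11.1, close to the 10.8 of pretumorigenic cells and far above the 0.347 of CTL, and the ligand *Cd274* (PD-L1) was at 0.758 against 0.260 pooled. *Pdcd1*, which encodes PD-1, was at 0.234 against 4.42 in germinal center TFH cells, and *Lag3* at 0.227 against 2.84 in activated cells. The pattern was thus high *Ctla4* with low *Pdcd1* and *Lag3*. Of 11 cytotoxic granule genes, 7 were higher (6.75% of all genes were), among them *Nkg7* (8.61 against 15.2 in CTL and 2.09 in pretumorigenic cells) and the granzyme B inhibitor *Serpinb9* (1.32, above the 0.587 of CTL), whereas *Gzma* (1.76 against 14.1 in CTL) and *Cd160* (0.312 against 2.63) stayed far below CTL. Of 24 survival and death genes, 12 were higher and 3 lower (6.75% and 22.2% of all genes). They pulled both ways, with the cycle inhibitor *Cdkn1a* at 2.29 against 0.252, the death gene *Pmaip1* (Noxa) at 1.58 against 0.264 and the protective *Bcl2a1b*, a member of a family of near-identical copies, at 4.03 against 1.41. Of 20 glucose and amino acid metabolism genes, 5 were higher and 2 lower (6.75% and 22.2% of all genes), and 13 neither (median log2 ratio -0.04). Of the higher ones *Odc1*, the first enzyme of polyamine synthesis, was at 6.65 against 0.765 and hexokinase *Hk2* at 2.18 against 0.474.

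The 10 lowest against the pooled clusters were *Cxcr5*, *Izumo1r*, *Pclaf*, *Rflnb*, *Cd27*, H2-Q2, *Pdik1l*, *Slamf6*, *Il6st* and *Tor4a*. *Cxcr5*, which takes T cells into follicles, had 1 corrected UMI in all 361 cells, against a level of 1.64 in germinal center TFH cells. *Cd27*, a costimulatory receptor of the TNF receptor family, was at 0.0496 against 1.75 in the same cells, and *Slamf6* at 0.163 against 2.44 in tissue-resident TFH cells. Of 22 cell cycle genes, 14 were lower (22.2% of all genes were) and only the cyclin gene *Ccnd3* higher (2.46 against 1.21), with *Mki67* at 0.241 against 12.2 in cycling cells. The pooled comparison held the 77 cycling cells, and against the pretumorigenic and CTL clusters the median of the list was -0.11 and -0.16. Of 22 migration and residency genes, 9 were higher and 6 lower (median log2 ratio 0.06). Over all genes compared, 6.75% were higher and 22.2% lower, so the 6 lower ones lay near the share of all genes. The integrin chain *Itga4* (1.95 against 4.10) and the gut-homing receptor *Ccr9* (1.67 against 3.37) were lower. The integrin chain *Itgb1* (1.19 against 0.376) and *Cd69* (5.63 against 1.26) were higher, and *Cxcr6* was within 1.5-fold (7.42 against 5.64). *Cd69* was higher still in pretumorigenic cells, at 7.397, so its peak lay outside the tumorigenic cluster. In all, 180 genes (3.02%) were at least 1.5-fold below each of the other 7 clusters.

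Compared with the pretumorigenic cluster alone, 554 genes (9.31%) were at least 1.5-fold higher in the tumorigenic cells and 602 (10.1%) lower. Of the 402 genes higher than in the pooled clusters, 172 were also higher than in pretumorigenic cells, 203 lay within 1.5-fold of them and 27 were lower. The 5 with the largest ratio were *Ccl3*, *Klrg1*, *Il12rb2*, *Ccl5* and *Ccl4*. *Klrg1* had 124 corrected UMIs against 4 (ratio 19.1, counting interval 7.28 to 71.2), and *Ccl3* 50 against 1 (counting interval 5.28 to 1242). The 50 of *Ccl3* came from 10 cells, with up to 23 in 1 cell, and the interval does not cover that unevenness. The 5 with the smallest were *Cxcr5*, *Pclaf*, H2-Q2, *Izumo1r* and *Hspa1b*, of which only *Hspa1b* had more than 20 corrected UMIs in either cluster. The largest ratios thus fell on chemokines and Th1-associated receptors, while the T cell receptor-induced early genes had a median log2 ratio of -0.04 to pretumorigenic cells.

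Against CTL, one of several other clusters with *Ifng*, 580 genes (9.74%) were higher and 1367 (23%) lower. The highest ratios belonged to *Areg*, *Il17f*, *Il17a*, *Cxcl3* and *Nr4a1*, all nearly silent in CTL. *Areg* had 417 corrected UMIs against 1 (counting interval 63.8 to 14142), and *Nr4a1* had 1511 against 11 (ratio 118, counting interval 65.6 to 236). The *Areg* UMIs came from 67 cells, with up to 39 in 1 cell. Such intervals take each UMI as independent, so they are too narrow to place the ratio. The lowest were *Pdik1l*, *Tor4a*, *Ifit1bl1*, *Atp8a2* and *Cd7*, with *Cd7*, a surface glycoprotein of T and NK cells, at 0.474 against 4.58. Tumorigenic cells thus carried *Tbx21* at a level close to that of CTL, and *Ifng* at a level well above it. They also carried *Il17a*, *Il17f* and *Nr4a1*, which were nearly silent in CTL. The 24 measured early genes were present in CTL at a lower summed level (18.7 against 58.3). Of the 19 compared, 11 were higher in tumorigenic cells and 4 lower (9.74% and 23% of all genes). The 4 lower ones thus lay near the share of all genes.

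The programs were unevenly spread over the cells. Of the 361 tumorigenic cells, 217 had at least 1 corrected UMI of *Ifng* and 144 had none, at median depths of 3881 and 4024 corrected UMIs. *Ifng* was itself uneven, with a median of 2 and a maximum of 117 corrected UMIs in a cell, and the 36 richest cells held 58.9% of it. The 36 richest cells for each gene held 71.8% of *Ccl5*, 80.8% of *Il22* and 98.1% of *Il17a*, so the cluster levels of these genes rest on few cells. *Tbx21* was detected in 28.6% of cells with *Ifng* (interval 22.7 to 35.1%) and 6.25% of cells without (2.90 to 11.5%). *Ccl5* was in 51.6% (44.8 to 58.4%) and 16.0% (10.4 to 23.0%). *Csf1* was in 15.2% and 3.47%, and *Ccl4* in 16.6% and 0.694%. *Tbx21*, *Ccl4* and *Ccl5* were thus found more often in cells with *Ifng*, which did not hold for every chemokine gene and was reversed for the level of *Cxcl3*.

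Among Th17 genes, the cytokines ran the other way. *Il22* was found in 22.6% of cells with *Ifng* (interval 17.2 to 28.7%) and 50% of those without (41.6 to 58.4%). *Il17a* was in 9.22% (5.72 to 13.9%) and 21.5% (15.1 to 29.1%), and *Il17f* in 4.15% and 19.4%. *Rora*, in 94.5% and 93.8% of cells, did not divide with *Ifng*, and the IL-23 receptor gene *Il23r* had overlapping intervals (9.53 to 19.1% and 16.9 to 31.4%). Of 65 cells with *Il17a* or *Il17f*, 22 also had *Ifng*, and 49 cells had both *Il22* and *Ifng*, so that *Ifng* and Th17 cytokines were also detected in the same cells. *Tnf* (39.2% and 29.9%) and *Csf2* (23.0% and 18.1%) had overlapping intervals, *Il10* was in 1 cell of 361, and 38 cells had none of *Ifng*, *Tnf*, *Csf2*, *Il17a*, *Il17f* and *Il22*. The lowest shares of any cluster give the scale of background, with *Il22* in 6.54% and *Il17a* in 1.25% of CTL, and *Tbx21* in 1.35% of tissue-resident TFH cells.

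The same division was then taken over all 1969 genes with at least 100 corrected UMIs in the tumorigenic cells, after these values had been seen. In cells with *Ifng*, 81 genes (4.11%) were at least 1.5-fold higher and 96 (4.88%) lower. Cytotoxic and Th1-associated genes were among the higher ones, with *Ccl5* at 70.9 against 5.14 per 10000, *Nkg7* at 13.1 against 1.93, *Gzmb* at 2.87 against 0.351, *Klrg1* at 1.38 against 0.1402, *Fasl* at 1.24 against 0.298 and *Hopx* at 5.84 against 1.93. The lower ones included the transcriptional cofactor *Lmo4* (1.33 against 5.38), *Cxcl3* (0.843 against 2.56), the RANK ligand gene *Tnfsf11* (0.713 against 2.09) and the decoy receptor *Il1r2* (0.558 against 1.28). The other 5 markers did not divide with *Ifng*, since *Bhlhe40* (15.8 against 13.9), *Nr4a1* (10.6 against 10.8), *Tnfaip3* (17.2 against 18.6), *Furin* (24.6 against 22.3) and *Pim1* (15.6 against 18.8) were within 1.5-fold. The heat shock genes *Hspa1b* (20.0 against 2.61) and *Hspa1a* (22.1 against 3.07) had larger ratios than *Nkg7*, and *Klf2* was higher too (18.2 against 6.63). Heat shock genes as a list were higher in cells with *Ifng*, at a summed level of 175 against 105, while the dissociation list was at 639 against 569, and their part in the division was not tested. Without the cells with *Ifng*, 49 of the 67 genes were still at least 1.5-fold above every other cluster.

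**Figure D4:**
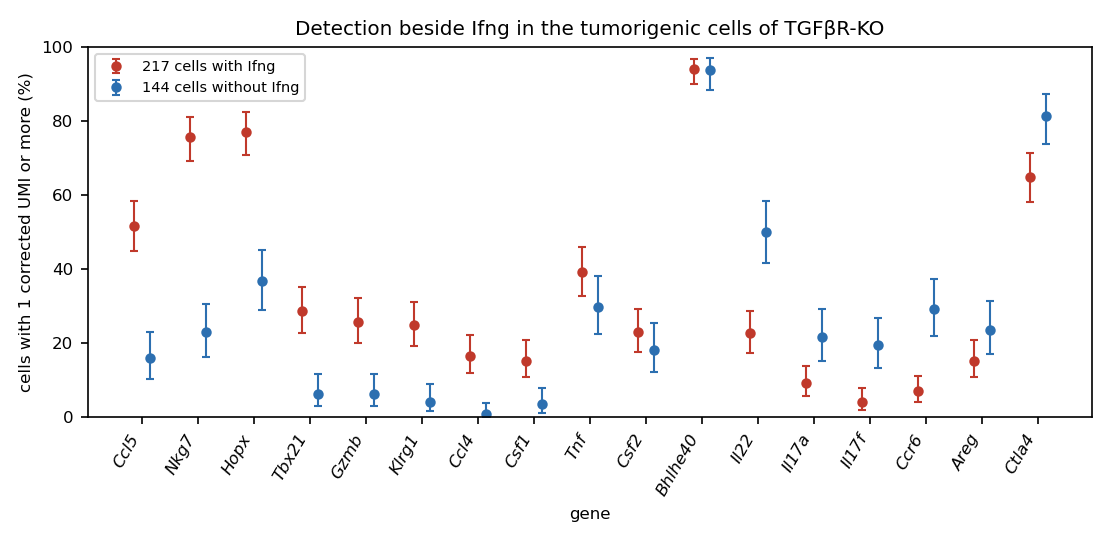
Points give the percent of tumorigenic TGFβR-KO cells with at least 1 corrected UMI of each gene (horizontal axis), among 217 cells with Ifng (red) and 144 without (blue), with exact 95% binomial intervals that cover counting error only. Ccl5, Nkg7, Hopx, Tbx21, Gzmb, Klrg1 and Ccl4 lie higher in red, Il22, Il17f and Ccr6 lie higher in blue, and Bhlhe40 is at 94.0 and 93.8%.

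The few tumorigenic cells of the other conditions were read as counts. The 5 cells labelled TGFβR-WT held 19823 corrected UMIs, and *Bhlhe40*, *Tnfaip3* and *Pim1* were detected in all 5, *Furin* in 4, and *Nr4a1* and *Ifng* in 2. They had 36 corrected UMIs of *Il17a* in 3 cells, 103 of *Il22* in 2 cells and none of *Tbx21*, where a count of 0 allows up to 1.51 per 10000. The 2 labelled TGFβR-CA held 8226 corrected UMIs, with *Bhlhe40*, *Furin*, *Tnfaip3* and *Pim1* in both, *Il17a* in both and none of *Ifng*, *Tbx21* or *Ccl5*, where a count of 0 allows up to 3.65. *Nr4a1* was detected in 1 of the 2. These cells had been put in the cluster by their expression, and they held too few UMIs to place their *Tbx21*. As TGFβR-KO and TGFβR-CA were in different runs, and the labels tie neither TGFβR-WT set to a run, a share within a run is given only as that of either set. The share of cells in the cluster was 0.282% (2 of 709) in the larger and 1.01% (3 of 298) in the smaller TGFβR-WT set, with intervals up to 1.02% and 2.91%. These intervals cover the counting of cells only. They hold no spread between mice or samples, so the difference from TGFβR-KO was not tested.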

How the data were processed

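The authors sorted YFP+CD4+ T cells and sequenced their 3′ RNA in droplets. Cell Ranger 3.1.0, Seurat and mm10 are named in the submitters' notes. Per the paper's methods, cells with 1000 to 5000 detected genes and under 10% mitochondrial reads were kept, samples were integrated and clustered, and γδ T and epithelial cells were removed. The authors deposited 1 table of 13265 genes by 5080 cells whose values are the natural log of 1 plus a depth-corrected UMI number. Undoing the log gave whole numbers (within 1e-06) for all 7880276 values above 0. Since they were corrected, models for raw counts were not used. Clusters are the authors' annotation. TGFβR-WT cells are pooled in the table, and their barcode suffixes split them into a larger and a smaller set that the labels do not tie to a sample.

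Corrected UMIs were summed per cluster and set per 10000 (Python 3.11.15, pandas 2.3.3, scipy 1.17.1). Genes with at least 200 corrected UMIs over TGFβR-KO cells were compared, with a fold of 1.5 called higher or lower and a sum of 0 raised to 3 UMIs in ratios. Intervals of shares are exact Clopper-Pearson ones at 95%, and those of ratios their conditional binomial counterpart, which takes each UMI as independent. The steps were tested on simulated data. Doublets were called with Scrublet (scanpy 1.11.5), which marked 4 of 2975 TGFβR-KO cells (0.134%), 2 of them tumorigenic, and so can hardly be taken to have worked. No cell was removed for it in the main values.

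The cluster, the gene lists and the motifs were chosen with earlier results of these data known. Genes named are the 15 with the largest ratio to the highest other cluster, the 15 highest and 10 lowest against the pooled clusters, the 5 highest and 5 lowest against the pretumorigenic and CTL clusters, the markers, and list members with the extreme ratios or with a role the text explains. The division of the cluster by *Ifng* over all genes was added after values were seen.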

Additional observations from a re-analysis of the deposited data

How the results depend on the processing

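No paired analysis was possible because TGFβR-KO and TGFβR-CA are 1 sample each and the pooled TGFβR-WT columns carry no replicate number. Of 89 gene counts recomputed under other settings, 60 stayed within 1.5 times the reported value. A minimum of 50 corrected UMIs in place of 200 gave 653 higher and 2550 lower genes against the pooled clusters, 469 below every cluster, 1177 higher and 1471 lower than pretumorigenic cells, and 1124 higher and 2429 lower than CTL. No minimum beyond 1 gave 2459 and 3336 against the pooled clusters, 111 above and 630 below every cluster, 1851 and 3156 against pretumorigenic cells, and 1986 and 3681 against CTL. A fold of 2 gave 216 and 433, 18 above and 35 below every cluster, 142 and 158 against pretumorigenic cells, and 313 and 495 against CTL. Adding 0.1 per 10000 to both levels left 820 lower genes, 45 below every cluster, and 300 and 277 against pretumorigenic cells. The counts thus follow how many weakly expressed genes are let in. Ratios divided by their median, chosen after seeing the data, gave 645 higher and 744 lower genes. All 222 recomputed ratios of 37 named genes stayed on their side of 1.5-fold, whether cells were weighted equally, 0.1 was added, ribosomal and mitochondrial genes were dropped, or cells with shared barcodes, called doublets or over 5% mitochondrial UMIs were left out. With *Ifng* taken as present at 3 or more corrected UMIs, also chosen after seeing the data, *Il22* was in 15.9% and *Ccl5* in 59.8% of cells with *Ifng*. 36 of the 217 cells with *Ifng* had 1 corrected UMI and 17 had 2. The share of TGFβR-WT cells in the cluster was 0.282 to 1.01% with either set left out. Depth limits what can be said of genes under about 1 per 10000, such as *Tbx21*, which was seen in 71 of 361 cells.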

Other observations

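Antigen receptor transcripts differed between the clusters of TGFβR-KO. The constant gene *Trbc1* was detected in 51.0% of tumorigenic cells (interval 45.7 to 56.2%), 56.1% of pretumorigenic cells, 91.0% of CTL and 64.9% to 74.0% of cells in the other 5 clusters. Its near-identical copy *Trbc2*, with which it can share reads, was in 98.3% of tumorigenic cells and 94.4% of CTL. The variable segment *Trbv15* was in 20 of 361 tumorigenic cells, or 5.54% (interval 3.42 to 8.43%), against 1.42% of cells in the other clusters. *Trbv3* and *Trav8n-2*, found in 16.8% and 12.8% of CTL, were in 2.22% and 0.554% of tumorigenic cells. These segments were picked after their values were seen, and 3′ reads catch few of them.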
